A study of Homo sapiens with 96 samples.

Results

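The genes of cholesterol and fatty acid synthesis are 38 genes chosen by symbol for what their products do, and 38 of the 60502 gene rows of the count table carried these symbols. They fell into 6 roles: 7 genes of the mevalonate steps, 11 of the squalene and sterol steps, 5 of sterol sensing, 2 of sterol transport and esterification, 5 liver X receptor (LXR) genes and targets, and 8 of fatty acid synthesis. RNA was measured by stranded total RNA sequencing in 6 human acute myeloid leukemia cell lines. HL60 is a promyelocytic leukemia line, the RUNX1-RUNX1T1 fusion marks Kasumi1, fusions of KMT2A mark THP1, MV411 and MOLM13, and OCIAML3 has mutant NPM1. Every line received 0.1% DMSO, the arm labelled 552A, all-trans retinoic acid (ATRA) at 100 nM, or the combination of both (Combo), for 2 or 4 days, with 2 replicates of each, so that 96 libraries made 48 groups. The 552A arm is read here as GSK2879552 at 1 µM, an irreversible inhibitor of the histone demethylase LSD1 (KDM1A), because it is the compound that the treatment text names beside ATRA. All groups shared the DMSO control of their line and day, and a line stands for no other leukemia of its subtype. The labels do not say whether the replicates were separate cultures, and p-values within a line measure the spread between those libraries only.

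Cells make cholesterol from acetyl-CoA through mevalonate, farnesyl diphosphate, squalene and lanosterol. The membrane-bound transcription factor SREBF2 drives this pathway and SREBF1 drives fatty acid synthesis; SCAP carries both factors to the Golgi when sterol is scarce, and INSIG1 and INSIG2 hold them in the endoplasmic reticulum when sterol is plentiful. The LXR receptors NR1H3 and NR1H2 sense oxysterols and act in the opposite sense, raising the sterol exporters ABCA1 and ABCG1, the ubiquitin ligase MYLIP that removes lipoprotein receptors, and SREBF1 itself. In myeloid cells sterol synthesis supports growing progenitors, while esterification by SOAT1 and export by ABCA1 are features of macrophages.

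Promoter sequence is shown for 4 members that mark the main contrasts: SREBF2, the sterol regulator; LSS, the sterol enzyme with the smallest p with Combo; SCD, the desaturase that fell in every line; and SOAT1, 1 of the 2 members that rose with Combo. Each is the 250 bases before the RefSeq start on GRCh38.p14, printed from 5′ to 3′ on the gene's strand, at chr22:41832855-41833104 on the plus strand for SREBF2, chr21:46228775-46229024 on the minus strand for LSS, chr10:100346983-100347232 on the plus strand for SCD and chr1:179293547-179293796 on the plus strand for SOAT1. Capitals mark the CCAAT box, bound by NF-Y, on either strand, and in SREBF2 also the sterol regulatory element core TCACNCCAC.
SREBF2: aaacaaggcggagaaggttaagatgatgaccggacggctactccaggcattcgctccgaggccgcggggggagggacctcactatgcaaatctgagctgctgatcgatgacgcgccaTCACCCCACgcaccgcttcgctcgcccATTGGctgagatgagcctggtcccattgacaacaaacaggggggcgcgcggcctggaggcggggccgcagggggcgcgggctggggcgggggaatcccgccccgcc
LSS: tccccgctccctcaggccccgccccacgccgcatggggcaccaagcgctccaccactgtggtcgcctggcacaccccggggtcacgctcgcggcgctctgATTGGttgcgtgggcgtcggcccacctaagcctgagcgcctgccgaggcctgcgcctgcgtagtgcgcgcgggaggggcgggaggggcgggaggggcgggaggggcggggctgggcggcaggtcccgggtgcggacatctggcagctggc
SCD: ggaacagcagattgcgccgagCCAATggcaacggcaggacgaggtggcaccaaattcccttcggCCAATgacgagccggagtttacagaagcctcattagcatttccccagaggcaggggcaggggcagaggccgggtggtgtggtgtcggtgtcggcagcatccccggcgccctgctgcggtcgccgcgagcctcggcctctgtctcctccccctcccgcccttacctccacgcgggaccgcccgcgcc
SOAT1: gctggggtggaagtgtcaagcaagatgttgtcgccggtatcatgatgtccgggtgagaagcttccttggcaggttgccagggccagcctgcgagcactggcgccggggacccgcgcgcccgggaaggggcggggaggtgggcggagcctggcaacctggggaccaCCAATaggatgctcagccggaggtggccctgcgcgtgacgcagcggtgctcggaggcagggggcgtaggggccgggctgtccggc

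A CCAAT box was in all 4 of these sequences, 106 bases before the start in SREBF2, 150 in LSS, 186 and 229 in SCD, and 85 in SOAT1. SOAT1, which rose with Combo, thus held the same letters as the 3 shown that fell. Over the 300 bases from 250 before to 50 after the start, RefSeq gave 47 windows for 33 of the 38 members, and CCAAT was on either strand in 26 of them (55.3%), against 34.6% of all 35116 windows. The core TCACNCCAC was in 1 of the 47 windows (2.13%), that of SREBF2 at 133 bases before the start, against 1.13% of all. The palindromic E-box CACGTG was in 6 windows (12.8%), those of ABCA1, INSIG1, LSS, SC5D and SCAP, against 7.26% of all, and the direct repeat 4 that LXR binds was in 0 windows against 0.0199%. No marked motif overlaps another in the sequences shown, and a match is a description of the letters only. ABCG1, FASN, SQLE, ACAT2 and FDFT1 had no window in the table.

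Library totals ran from 12822146 to 40954794 counts with a median of 22877617. Levels are given below as read counts scaled to 1000000 counts per library after edgeR's trimmed mean of M-values normalisation (CPM), and changes as log2 fold changes. A call is an adjusted p under 0.05 by edgeR's quasi-likelihood test over all genes tested. Changes across lines used the sum of the 2 replicates with the line as a block (n = 6 lines), and changes within a line used its 16 libraries. In 5 libraries the counts depended steeply on the GC content of genes, among them Kasumi1 Combo replicate 1, MOLM13 552A replicate 1 and MV411 Combo replicate 2 at day 4, and results are also given without them or after correction for GC content and length. All 38 members passed the filter on low counts across lines. The markers of the labelled cells were present: the summed CPM of 14 myeloid differentiation genes had a median of 477 in DMSO at day 4 and that of 7 progenitor genes a median of 2433, while 4 erythroid genes summed to at most 0.243.

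Per kilobase of exon, SCD had the highest level of the 38 members in DMSO at day 4, with a median of 99.98 RPKM over 12 libraries. FDFT1 followed at 69.8, INSIG1 at 62.7 and FDPS at 55.2 RPKM, while SCD5, the second desaturase gene, was at 0.994 and ABCG1 at 0.0619 RPKM. The genes covered a wide range of levels before any drug. ABCG1 had a count of 0 in 22 of the 96 libraries, and its levels are given without fold changes.

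Combo lowered most of the pathway at day 4. Across the 6 lines 23 of 38 members fell and 2, SOAT1 and SCD5, rose, where 10.6% of all 24199 genes tested were called lower and 12.7% higher. The median log2 fold change was -0.66 over the members and 0.04 over all genes, and 31 of 38 members had a lower point estimate. The largest falls were in fatty acid synthesis and desaturation, in the cyclase LSS and in the lanosterol demethylase CYP51A1. In bulk RNA, fewer cells of a type and less RNA per cell cannot be told apart. Of the 25 calls, 19 held in all 14 alternatives tried. The others were HMGCS1, MVD, SCAP, INSIG1, NSDHL and SQLE, and are given with their roles.

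**Figure D1:**
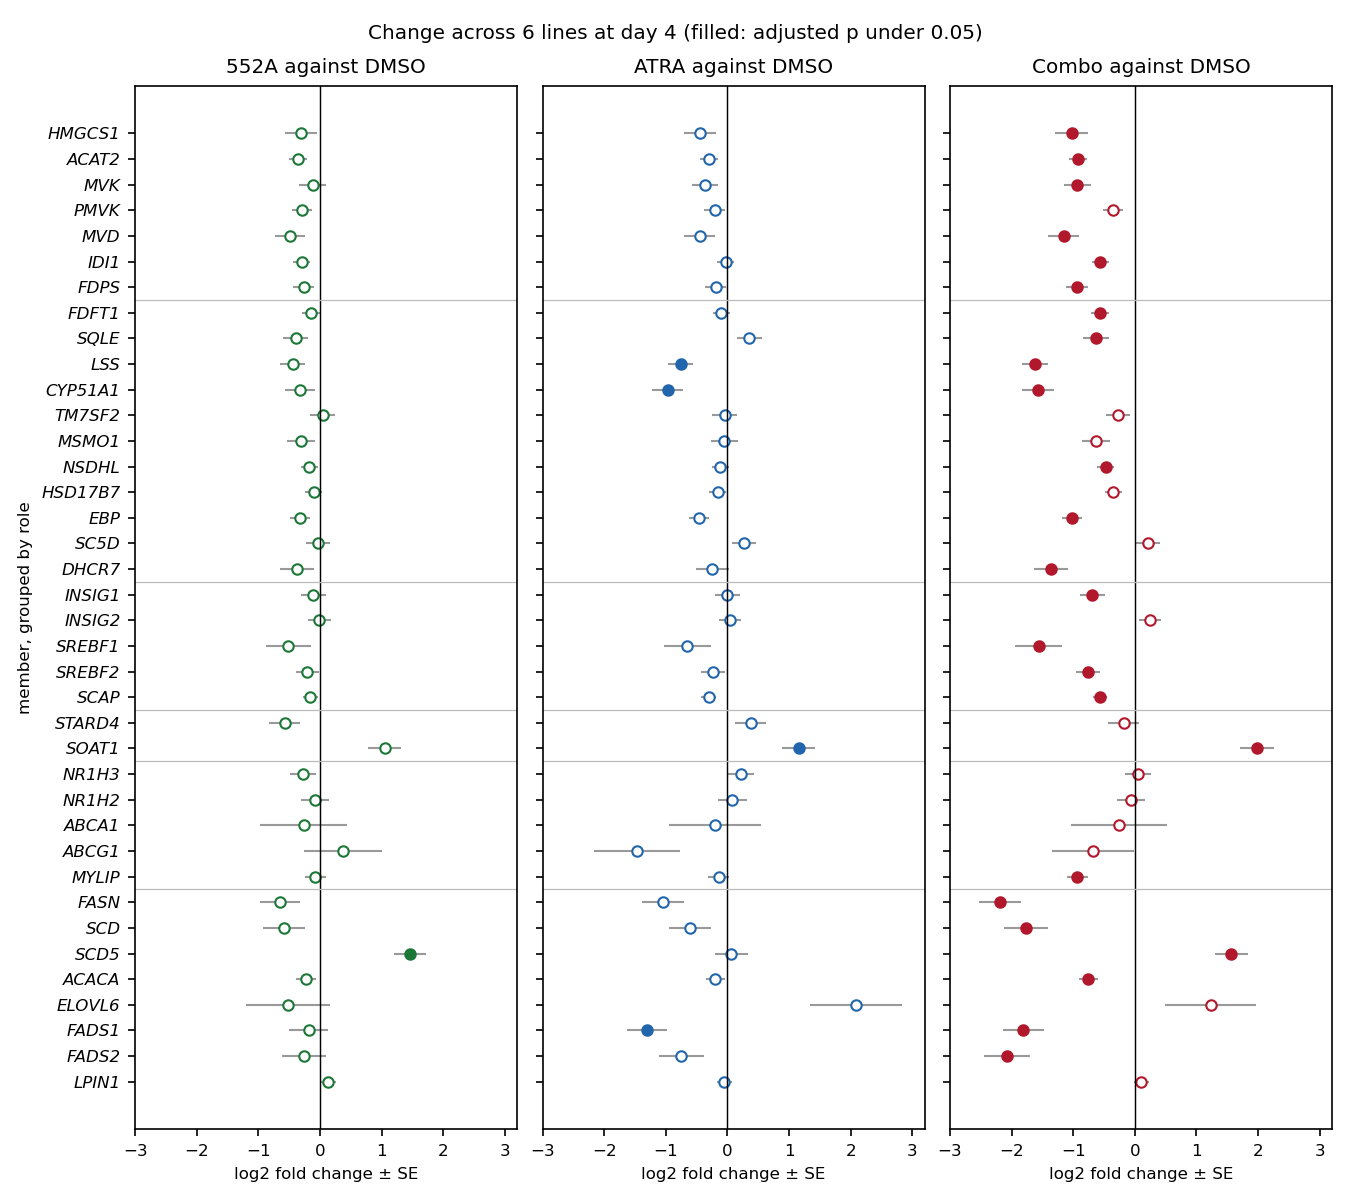
Log2 fold change against DMSO across 6 lines at day 4 (x axis, bars are SE) for the 38 members grouped by role, 1 panel for each of 552A, ATRA and Combo; filled points have an adjusted p under 0.05. With Combo 23 members lie filled on the left of 0 and SOAT1 and SCD5 on the right, while with 552A only SCD5 is filled.

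Of the 7 genes of the mevalonate steps, 6 fell with Combo, with a median of -0.94 over the role. ACAT2, the cytosolic thiolase that joins acetyl-CoA units, ranged from 30.6 to 144 CPM with a median of 67.4 in DMSO and from 23.4 to 62.5 CPM with a median of 37.2 in Combo. Both Combo libraries lay below both DMSO libraries in 5 of 6 lines, the exception being MOLM13. The fold change was -0.93 ± 0.15 (SE; edgeR adjusted p = 0.000552). FDPS, which makes farnesyl diphosphate, ranged from 58.5 to 384 CPM with a median of 205 in DMSO and from 52.04 to 138 CPM with a median of 98.8 in Combo. Its Combo libraries were below its DMSO libraries in all 6 lines, although the ranges over all lines overlap. Its fold change was -0.94 ± 0.17 (SE; edgeR adjusted p = 0.0014).

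MVD, the mevalonate diphosphate decarboxylase, ranged from 11.6 to 48.8 CPM with a median of 28.6 in DMSO and from 2.87 to 39.01 CPM with a median of 11.02 in Combo, and changed by -1.15 ± 0.25 (SE; edgeR adjusted p = 0.00354). Its replicates differed widely: with Combo they were 2.87 and 16.1 CPM in Kasumi1 and 39.01 and 9 CPM in THP1. Its call was lost without replicate 2 (-0.96, adjusted p = 0.0626 by edgeR). The mevalonate kinase MVK (-0.94 ± 0.22) and the isomerase IDI1 (-0.56 ± 0.14) also fell. HMGCS1, the synthase that makes HMG-CoA, changed by -1.02 ± 0.27 (SE; edgeR adjusted p = 0.0113), and within lines it was called in HL60 and MV411. In HL60 it went from 337 and 205 CPM to 56.6 and 57.8 and in MV411 from 135 and 214 to 35.8 and 41.3. In OCIAML3 its level stayed within the spread, with 73.5 and 81.8 CPM in DMSO and 64.9 and 73.9 in Combo, and without MV411 the call across lines was lost (-0.80, edgeR adjusted p = 0.0595). PMVK did not pass (-0.35 ± 0.17 (SE; edgeR adjusted p = 0.131)).

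Of the 11 genes of the squalene and sterol steps, 7 fell with Combo, with a median of -0.63. LSS, which closes squalene epoxide into lanosterol, had the smallest p of the falling members: it ranged from 16.7 to 78.5 CPM with a median of 38.8 in DMSO and from 4.696 to 26.99 CPM with a median of 10.9 in Combo, a change of -1.62 ± 0.21 (SE; edgeR adjusted p = 0.000182). Combo was below DMSO in all 6 lines. CYP51A1, the lanosterol demethylase, ranged from 4.58 to 17.2 CPM with a median of 10.6 in DMSO and from 1.002 to 10.7 CPM with a median of 2.38 in Combo, a change of -1.57 ± 0.25 (SE; edgeR adjusted p = 0.000604). It too was lower in all 6 lines, with the widest gap between replicates in THP1, at 10.7 and 1.78 CPM in Combo. In the GENCODE 29 annotation 79.35% of the exonic bases of CYP51A1 are shared with genes on the same strand, so its counts are uncertain.

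EBP, the sterol isomerase, ranged from 23.3 to 175 CPM with a median of 95.4 in DMSO and from 9.76 to 114 CPM with a median of 38.2 in Combo, and changed by -1.02 ± 0.17 (SE; edgeR adjusted p = 0.000644). DHCR7, the last reductase before cholesterol, changed by -1.35 ± 0.28 (SE; edgeR adjusted p = 0.0025). Its fall was steepest in MV411, from 70.1 and 51.1 CPM to 7.19 and 3.51. Squalene synthase FDFT1 (-0.56 ± 0.14), squalene epoxidase SQLE (-0.63 ± 0.21) and the sterol dehydrogenase NSDHL (-0.47 ± 0.14) fell by less. The call of SQLE was lost without Kasumi1 (-0.60, adjusted p = 0.0926), MV411 (-0.42, 0.0861), THP1 (-0.63, 0.0923) or replicate 2 (-0.50, 0.127), and without the 5 libraries of steep GC trend (-0.64, 0.0512), all by edgeR. That of NSDHL was lost without Kasumi1 (-0.41, edgeR adjusted p = 0.0791), MV411 (-0.37, 0.086), THP1 (-0.49, 0.0515) or replicate 2 (-0.45, 0.0628). The methyl sterol oxidase MSMO1 missed the threshold (-0.64 ± 0.23 (SE; edgeR adjusted p = 0.0506)), as did HSD17B7, TM7SF2 and SC5D.

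Of the 5 sterol sensing genes 4 fell with Combo, with a median of -0.69. SREBF2, the regulator whose promoter sequence above holds both a CCAAT box and the sterol regulatory element core, ranged from 120.2 to 208 CPM with a median of 148 in DMSO and from 44.8 to 194 CPM with a median of 80.4 in Combo. It changed by -0.76 ± 0.20 (SE; edgeR adjusted p = 0.00969). It was lower in 5 lines and not in HL60, where DMSO gave 148 and 153 CPM and Combo 194 and 145. SREBF1, the fatty acid branch regulator, ranged from 20.4 to 127 CPM with a median of 85.1 in DMSO and from 6.89 to 66.5 CPM with a median of 22.3 in Combo, a change of -1.56 ± 0.38 (SE; edgeR adjusted p = 0.00737). The fall was steepest in OCIAML3, from 127 and 99.3 CPM to 17.01 and 7.68. In Kasumi1 and MV411 its replicates overlapped between the groups.

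SCAP, the escort of both factors, changed by -0.56 ± 0.12 (SE; edgeR adjusted p = 0.00328), and no single line called it. After correction for GC content and length its change was -0.16 (edgeR adjusted p = 0.283), and without the 5 libraries of steep GC trend it was -0.38 (edgeR adjusted p = 0.0675). Its exonic GC content is 62.27%. INSIG1 changed by -0.69 ± 0.20 (SE; edgeR adjusted p = 0.0207), and the call was lost without OCIAML3 (-0.54, edgeR adjusted p = 0.0745), THP1 (-0.66, 0.0603) or replicate 2 (-0.58, 0.0649). INSIG2 did not pass (0.24 ± 0.18 (SE; edgeR adjusted p = 0.337)).

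Fatty acid synthesis held the largest changes. Of 8 genes 5 fell, SCD5 rose, and the median was -1.26. SCD, the main stearoyl-CoA desaturase, ranged from 269.6 to 1009 CPM with a median of 536 in DMSO and from 36.2 to 244 CPM with a median of 162 in Combo, so that the 12 libraries of each group did not overlap. Its change was -1.76 ± 0.35 (SE; edgeR adjusted p = 0.00228), and it was called lower in all 6 lines. MV411 went from the highest level in DMSO, 819 and 1009 CPM, to the lowest in Combo, 66.1 and 36.2 CPM, a within-line change of -4.18 ± 0.53 (SE; edgeR adjusted p = 9.68e-05). THP1 had the smallest change, from 412 and 413 to 193 and 225 CPM.

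The delta-5 desaturase gene FADS1 ranged from 39.04 to 361 CPM with a median of 288 in DMSO and from 4.36 to 183 CPM with a median of 94.8 in Combo, changed by -1.81 ± 0.33 (SE; edgeR adjusted p = 0.0013), and was called lower in all 6 lines. Its level reached 7.64 and 4.36 CPM in MOLM13 with Combo, from 39.04 and 76.6 in DMSO. FADS2 is the delta-6 desaturase gene, and its annotated span on the opposite strand of chromosome 11 includes that of FADS1. Of the exonic bases, 4.79% in FADS1 and 4.44% in FADS2 lie opposite other genes. FADS2 ranged from 25.99 to 419 CPM with a median of 312 in DMSO. With Combo it ranged from 1.82 to 177 CPM with a median of 77.4. Its change was -2.08 ± 0.37 (SE, edgeR adjusted p = 0.00116). Combo libraries lay below DMSO libraries in all 6 lines for both genes. The lowest levels of both were in MOLM13 with Combo, where FADS2 had 4.63 and 1.82 CPM.

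FASN, the fatty acid synthase, ranged from 45.6 to 474 CPM with a median of 188 in DMSO and from 7.01 to 104 CPM with a median of 37 in Combo, and its change of -2.19 ± 0.34 (SE; edgeR adjusted p = 0.00052) was the steepest of the members. Combo was below DMSO in all 6 lines, but the replicates stood far apart, at 13.9 and 104 CPM in Kasumi1 and 77.1 and 15.8 CPM in THP1 with Combo and 216 and 45.6 CPM in MV411 with DMSO. FASN has the highest exonic GC content of the members, 65.34%, and within lines it was called only in HL60 and THP1. Corrected for GC content and length it changed by -1.762 and was no longer the steepest, with FADS1 at -1.783, SCD at -1.771 and FADS2 at -1.769. ACACA, the carboxylase that makes malonyl-CoA, changed by -0.76 ± 0.16 (SE; edgeR adjusted p = 0.00281) and was lower in all 6 lines.

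SCD5 moved the other way from SCD. It ranged from 0.113 to 14.1 CPM with a median of 4.27 in DMSO and from 0.65 to 25.02 CPM with a median of 10.2 in Combo, and every line had both Combo libraries above both DMSO libraries. Its change was 1.57 ± 0.27 (SE; edgeR adjusted p = 0.000881), called in all 6 lines, from 3.66 and 3.23 to 12.3 and 10.9 CPM in HL60 and from 0.487 and 0.492 to 2.88 and 2.69 CPM in MV411. ELOVL6, an elongase, and the phosphatidate phosphatase LPIN1 did not pass across lines with Combo.

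SOAT1, which esterifies cholesterol for storage, rose most of all members. It ranged from 16.02 to 70.2 CPM with a median of 36.2 in DMSO and from 72.9 to 414 CPM with a median of 98.4 in Combo, and the groups did not overlap. The change with Combo was 1.98 ± 0.28 (SE; edgeR adjusted p = 0.000281), called in all 6 lines. OCIAML3 went from 43.4 and 33.7 CPM to 412 and 379, the largest within-line change (3.32 ± 0.28 (SE; edgeR adjusted p = 2.08e-05)), and Kasumi1 from 56.6 and 53.4 to 132 and 98.8, the smallest (1.03 ± 0.18 (SE; edgeR adjusted p = 0.00265)). The rise differed between lines (edgeR F test over line-specific treatment terms, adjusted p = 8.33e-07). The sterol carrier STARD4 did not pass across lines (-0.18 ± 0.25 (SE; edgeR adjusted p = 0.634)).

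Of the 5 LXR genes only MYLIP passed with Combo. It ranged from 19.3 to 113 CPM with a median of 61.5 in DMSO and from 6.99 to 56.4 CPM with a median of 33.3 in Combo, and changed by -0.93 ± 0.17 (SE; edgeR adjusted p = 0.00138). It was called lower in 5 lines and overlapped with DMSO in Kasumi1. The receptors did not pass, NR1H3 at 0.06 ± 0.21 (SE; edgeR adjusted p = 0.878) and NR1H2 at -0.06 ± 0.23 (SE; edgeR adjusted p = 0.878), and neither did ABCA1 (-0.25 ± 0.78 (SE; edgeR adjusted p = 0.842)), whose lines went in opposite directions. NR1H3 was high in 2 lines: in DMSO OCIAML3 had 52.6 and 44.7 CPM and THP1 29 and 28.3, while no other line exceeded 7.91 CPM. It was called higher with Combo in THP1, at 69.1 and 46.95 CPM.

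**Figure D2:**
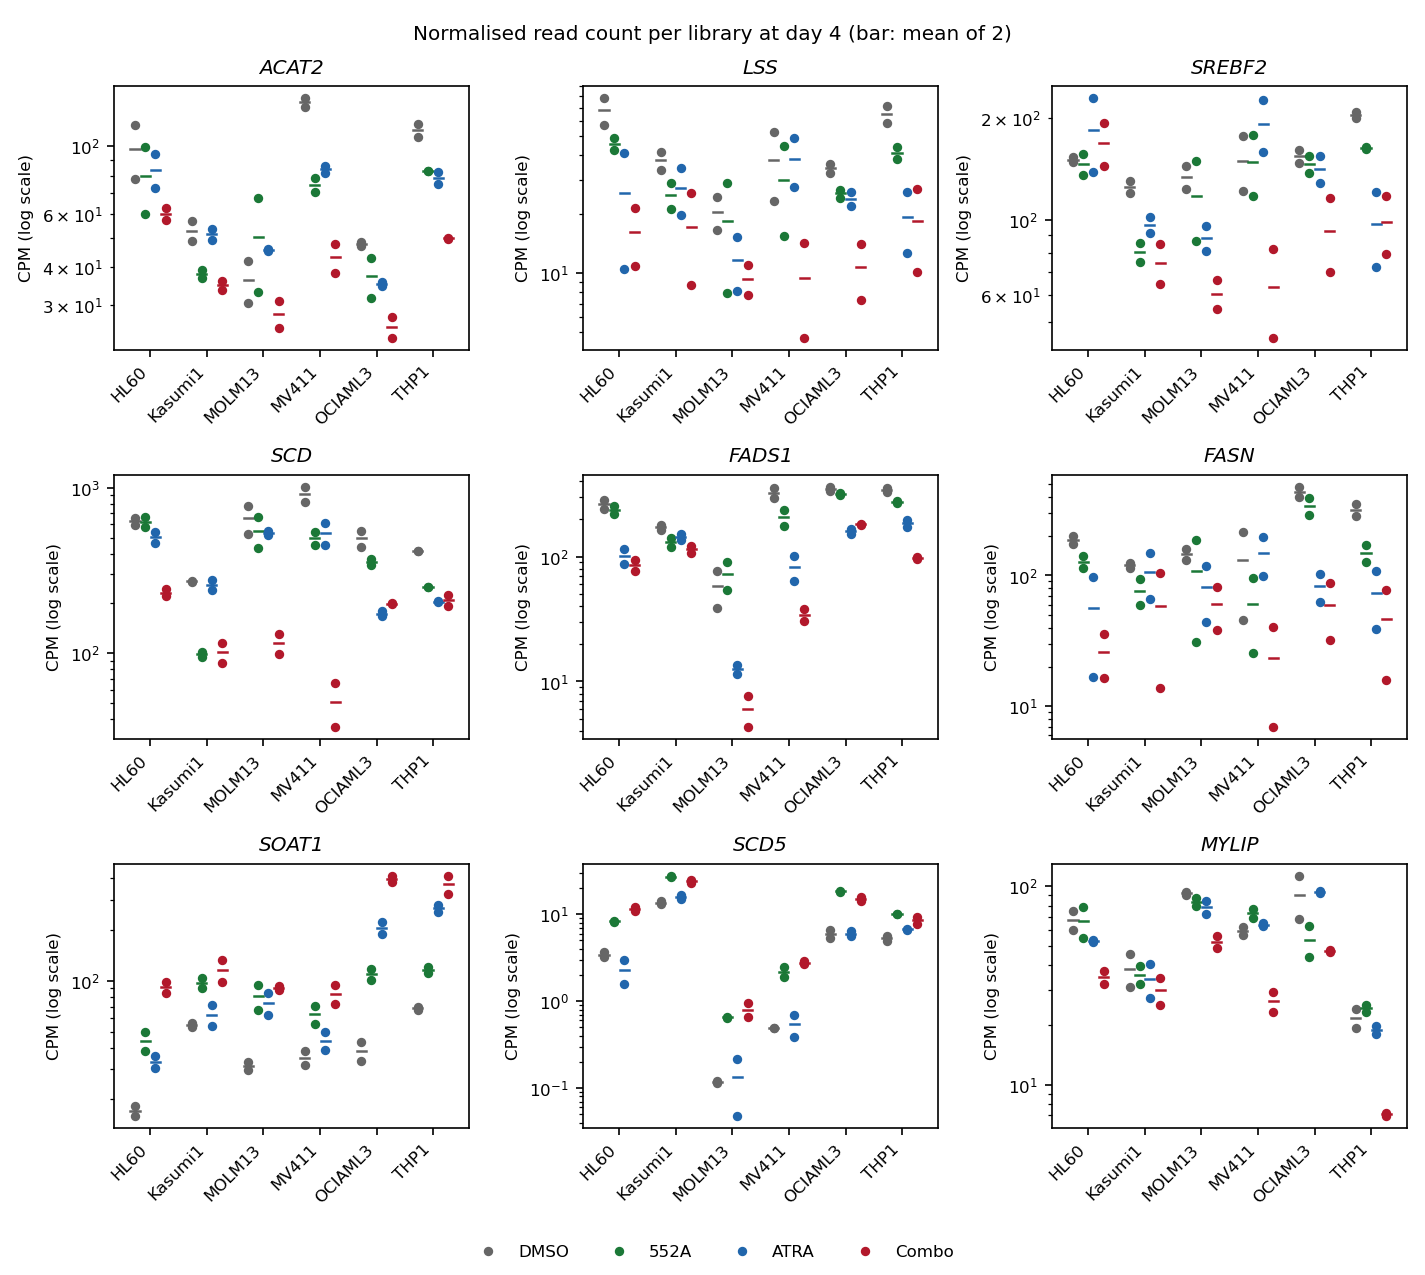
Normalised read counts in CPM (y axis, log scale) in the 2 libraries of each treatment at day 4, by line (x axis), for 9 named members; each point is a library and each bar the mean of 2. SCD and FADS1 with Combo sit below DMSO in all 6 lines, SOAT1 and SCD5 above DMSO in all 6 lines, and the FASN replicates of Kasumi1 with Combo stand apart at 13.9 and 104 CPM.

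ATRA alone moved fewer members. Across lines at day 4 it lowered FADS1, CYP51A1 and LSS and raised SOAT1, 3 lower and 1 higher of 38, where 2.99% of all genes were lower and 4.17% higher. The median over the members was -0.19 and over all genes -0.01. FADS1 ranged from 11.6 to 197 CPM with a median of 125 with ATRA and changed by -1.31 ± 0.33 (SE; edgeR adjusted p = 0.0226). It lay below DMSO in all 6 lines and was called in 5, the exception being Kasumi1. CYP51A1 ranged from 1.59 to 13.8 CPM with a median of 4.67 and changed by -0.97 ± 0.25 (SE; edgeR adjusted p = 0.0253), and LSS ranged from 8.12 to 48.95 CPM with a median of 23.97 and changed by -0.76 ± 0.21 (SE; edgeR adjusted p = 0.032). Neither was called within any line.

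SOAT1 ranged from 30.6 to 278 CPM with a median of 67.1 with ATRA and changed by 1.15 ± 0.27 (SE; edgeR adjusted p = 0.0181). The rise was large in OCIAML3, to 222 and 187 CPM, and in THP1, to 255 and 278 CPM, and small in MV411, where DMSO had 31.6 and 38.7 CPM and ATRA 49.5 and 39.1. With 5 lines in place of 6 these calls were lost in several cases while their folds kept their direction. SOAT1 passed no longer without HL60 (1.19, edgeR adjusted p = 0.053), MOLM13 (1.16, 0.0586), OCIAML3 (0.93, 0.0673) or THP1 (0.96, 0.0812). FADS1 was lost without HL60 (-1.30, edgeR adjusted p = 0.0836), MV411 (-1.15, 0.0625), OCIAML3 (-1.35, 0.068) or THP1 (-1.41, 0.0666). CYP51A1 was lost without HL60 (-0.94, edgeR adjusted p = 0.0896), MOLM13 (-0.88, 0.0814), OCIAML3 (-0.99, 0.0901) or THP1 (-0.85, 0.0666). LSS was lost without HL60 (-0.65, edgeR adjusted p = 0.133), MOLM13 (-0.73, 0.0913), OCIAML3 (-0.81, 0.0895) or THP1 (-0.58, 0.125). Over all genes edgeR called 1008 higher and 723 lower with 6 lines, and 281 to 383 higher and 124 to 197 lower without HL60, MOLM13, OCIAML3 or THP1. Without replicate 1, FADS1 (-1.34, edgeR adjusted p = 0.0727), CYP51A1 (-1.12, 0.112) and LSS (-0.74, 0.338) did not pass, nor did LSS without the 5 libraries of steep GC trend (-0.78, 0.0546).

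552A alone called 1 member across lines at day 4, SCD5, which rose, where 0.38% of all genes were higher and 0.0124% lower. The median over the members was -0.26 against 0.01 over all genes. A lower point estimate was found for 33 of 38 members and 11866 of 24199 genes. At an unadjusted p under 0.05 were 6 members and 1805 genes. SCD5 ranged from 0.645 to 27.6 CPM with a median of 9.27 with 552A and changed by 1.46 ± 0.27 (SE; edgeR adjusted p = 0.0139), and its 552A libraries were above DMSO in every line. Its call was lost without MOLM13 (1.36, edgeR adjusted p = 0.0749), MV411 (1.33, 0.0618) or OCIAML3 (1.41, 0.122). SOAT1 ranged from 38.4 to 120.2 CPM with a median of 92.7 with 552A, and its change of 1.05 ± 0.27 (SE; edgeR adjusted p = 0.106) missed the threshold. In every line both 552A libraries of SOAT1 were above both DMSO libraries, from 49.8 and 38.4 CPM in HL60 to 110.2 and 120.2 CPM in THP1, and DESeq2 called it (adjusted p = 0.0276). No member was called lower across lines by edgeR or by DESeq2 in this comparison. Within lines SCD was lower with 552A in Kasumi1, from 274 and 269.6 to 95.4 and 102 CPM, and in THP1, from 412 and 413 to 250.4 and 253 CPM.

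Combo was then set against each agent. Against 552A at day 4, 14 members were lower and SOAT1 was higher, where 3.72% of all genes were called in each direction, and the median over the members was -0.47. The 14 were ACAT2, MVK, FDPS, LSS, CYP51A1, EBP, DHCR7, SCAP, MYLIP, FASN, SCD, ACACA, FADS1 and FADS2. The largest were FADS2 (-1.81 ± 0.38 (SE; edgeR adjusted p = 0.0107)), FADS1 (-1.63 ± 0.33 (SE; edgeR adjusted p = 0.0101)) and FASN (-1.53 ± 0.34 (SE; edgeR adjusted p = 0.0133)). SOAT1 was higher by 0.93 ± 0.27 (SE; edgeR adjusted p = 0.0405). The number of calls, 15, fell to 7 without HL60 or MOLM13, 4 without OCIAML3 and 3 without THP1. Calls over all genes in these settings are not given here, so the loss is not read as particular to the members. Combo and 552A libraries of FADS1 were apart in MOLM13, at 7.64 and 4.36 against 54.3 and 90.4 CPM, and near each other in Kasumi1, at 122 and 107 against 119 and 142 CPM.

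Against ATRA at day 4, only SCD5 was called, higher by 1.504 ± 0.27 (SE; edgeR adjusted p = 0.0175), where 0.252% of all genes were higher and 0.0207% lower. This call was lost without HL60, MOLM13, MV411, OCIAML3 or replicate 1, each of which left 0 members called. No member was called lower by edgeR, while 26 of 38 members and 2444 of 24199 genes had an unadjusted p under 0.05. The median was -0.56 over the members and 0.02 over all genes, and 33 of 38 members had a lower point estimate. DESeq2 called 1 member higher and 8 lower. FADS2 was at -1.33 ± 0.37 (SE; edgeR adjusted p = 0.157), SCD at -1.15 ± 0.35 (SE; edgeR adjusted p = 0.219), DHCR7 at -1.11 ± 0.28 (SE; edgeR adjusted p = 0.107) and SQLE at -0.98 ± 0.21 (SE; edgeR adjusted p = 0.052). With the 2 replicates as separate libraries and a replicate block 18 members were called, 16 of them lower. That fit counts the 2 libraries of a line separately. The shares of all genes above belong to edgeR on the summed replicates, so the counts by DESeq2 and with the block have no share beside them. They are not read as a stronger change of the members. SQLE differed from most members in its change with ATRA against DMSO, 0.353 ± 0.205 (SE; edgeR adjusted p = 0.301). In that comparison 29 of 38 members had a lower point estimate. In MV411 SQLE had 219 and 322 CPM in DMSO, 307 and 411 with ATRA and 75.7 and 81.97 with Combo. In MOLM13 it had 230.3 and 251 CPM with ATRA and 104 and 107 with Combo, so ATRA libraries stood above Combo libraries in both lines.

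Whether Combo went beyond the sum of the log2 changes of the agents was tested directly. At day 4 edgeR called 0 members and 0% of all genes, with 1 member (MYLIP, -0.71 ± 0.24 SE, adjusted p = 1) and 215 genes at an unadjusted p under 0.05, and DESeq2 called 0 members. The median over the members was -0.27. At day 2 edgeR called 0 members and 0% of all genes, with 4 members (MYLIP, SCAP, NR1H2 and MVD) and 1275 genes at an unadjusted p under 0.05, and DESeq2 called 0 members. The median was 0.10, so the sign of the median differed between the days. Each agent's change and that of Combo share their DMSO libraries.

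The pattern was present at day 2. With Combo 21 members were lower and SOAT1 was higher, where 12% of all genes were lower and 15.2% higher, and the median was -0.52. ACAT2 changed by -0.97 ± 0.14 (SE; edgeR adjusted p = 0.000247), EBP by -1.15 ± 0.18 (SE; edgeR adjusted p = 0.000496), SCD by -1.15 ± 0.18 (SE; edgeR adjusted p = 0.000523) and SOAT1 by 1.92 ± 0.28 (SE; edgeR adjusted p = 0.000283) at day 2. ATRA lowered FASN (-1.28 ± 0.30), CYP51A1 (-1.18 ± 0.28), LSS (-0.90 ± 0.24), FADS1 (-0.86 ± 0.26) and EBP (-0.74 ± 0.18), 5 of 38, where 4.4% of all genes were lower and 4.97% higher. 552A raised SCD5 (1.25 ± 0.29) and SOAT1 (1.05 ± 0.27), 2 of 38, where 1.57% of all genes were higher and 0.381% lower. It called no member lower, but 33 of 38 members had a lower point estimate with 552A. The median was -0.37 over the members and 0.04 over all genes. At an unadjusted p under 0.05 by edgeR were 18 members and 4794 of 24130 genes. Against 552A, Combo lowered FADS1 and ACAT2 at day 2, where 0.796% of all genes were lower and 2.24% higher. Against ATRA it raised SCD5 (1.39 ± 0.30) and lowered SCD (-0.81 ± 0.18), where 0.837% of all genes were higher and 0.058% lower. Without OCIAML3 or THP1 neither agent called any member at day 2 by edgeR. Over all genes the calls with ATRA at day 2 also went from 1199 higher and 1062 lower to 149 and 28 without OCIAML3 and to 137 and 34 without THP1, and those with 552A from 380 and 92 to 138 and 11 and to 84 and 7.

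No member passed a test of time. Between day 4 and day 2 in DMSO edgeR called 0 members and 0% of 25017 genes, with 4 members and 874 genes at an unadjusted p under 0.05, and DESeq2 called 0 members. The change with each drug at day 4 was tested against its change at day 2, and edgeR called 0 members and 0% of genes for 552A, ATRA and Combo. At an unadjusted p under 0.05 these tests gave 0, 0 and 1 members and 179, 551 and 519 genes in that order, and DESeq2 called 0 members in each. The 1 member was SCD5 with Combo (0.83 ± 0.40 SE, edgeR adjusted p = 1).

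Within lines at day 4, Combo lowered more members than it raised in every line. MV411 had 21 members lower and 3 higher of 38 tested, where 13.6% of all genes were lower and 12.7% higher. THP1 had 16 lower and 8 higher of 38, where 16.8% were lower and 18.8% higher. Kasumi1 had 11 lower and 3 higher of 38, where 3.36% were lower and 6.9% higher. In these lines, as in the others, the share of members called lower was above the share of all genes called lower. OCIAML3 had 10 lower and 2 higher of 36, where 5.14% were lower and 9.98% higher. HL60 had 8 lower and 4 higher of 37, where 14.3% were lower and 15.2% higher. MOLM13 had 5 lower and 2 higher of 37, where 5.93% were lower and 8.11% higher. The 5 in MOLM13 were FADS2, FADS1, SCD, SREBF2 and MYLIP, and SCD and FADS1 were among the calls of all 6 lines.

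With ATRA fewer members were called in each line than with Combo. THP1 had 10 members lower and 3 higher, where 5.38% of all genes were lower and 8.85% higher. Its 10 were FADS2, SCD, FADS1, EBP, INSIG1, FDPS, ACACA, FDFT1, ACAT2 and LPIN1. OCIAML3 had 5 lower and 1 higher, where 5.78% were lower and 8.71% higher. HL60 had 1 lower and 3 higher (14.6% and 16.2% of all genes), MOLM13 1 and 2 (3.41% and 5%) and MV411 2 and 2 (13.9% and 11.9%). In Kasumi1 edgeR called 0 members, 1 member reached an unadjusted p under 0.05, DESeq2 also called 0, and 0.0167% of all genes were lower and 0.0889% higher.

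With 552A the calls within lines were few. Kasumi1 had 4 members lower and 2 higher, where 0.867% of all genes were lower and 4.28% higher: SCD, FADS2, ELOVL6 and SQLE fell, SOAT1 and SCD5 rose. THP1 had SCD, FDPS, ACACA and INSIG1 lower and the same 2 higher, where 2.16% were lower and 4.73% higher. MV411 had STARD4, SQLE and ACAT2 lower and the same 2 higher, where 1.7% were lower and 3.24% higher. OCIAML3 had those 2 higher (1.86% higher and 0.803% lower over all genes), while HL60 (0.781% and 0.139%) and MOLM13 (1.28% and 0.314%) had SOAT1 only.

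**Figure D3:**
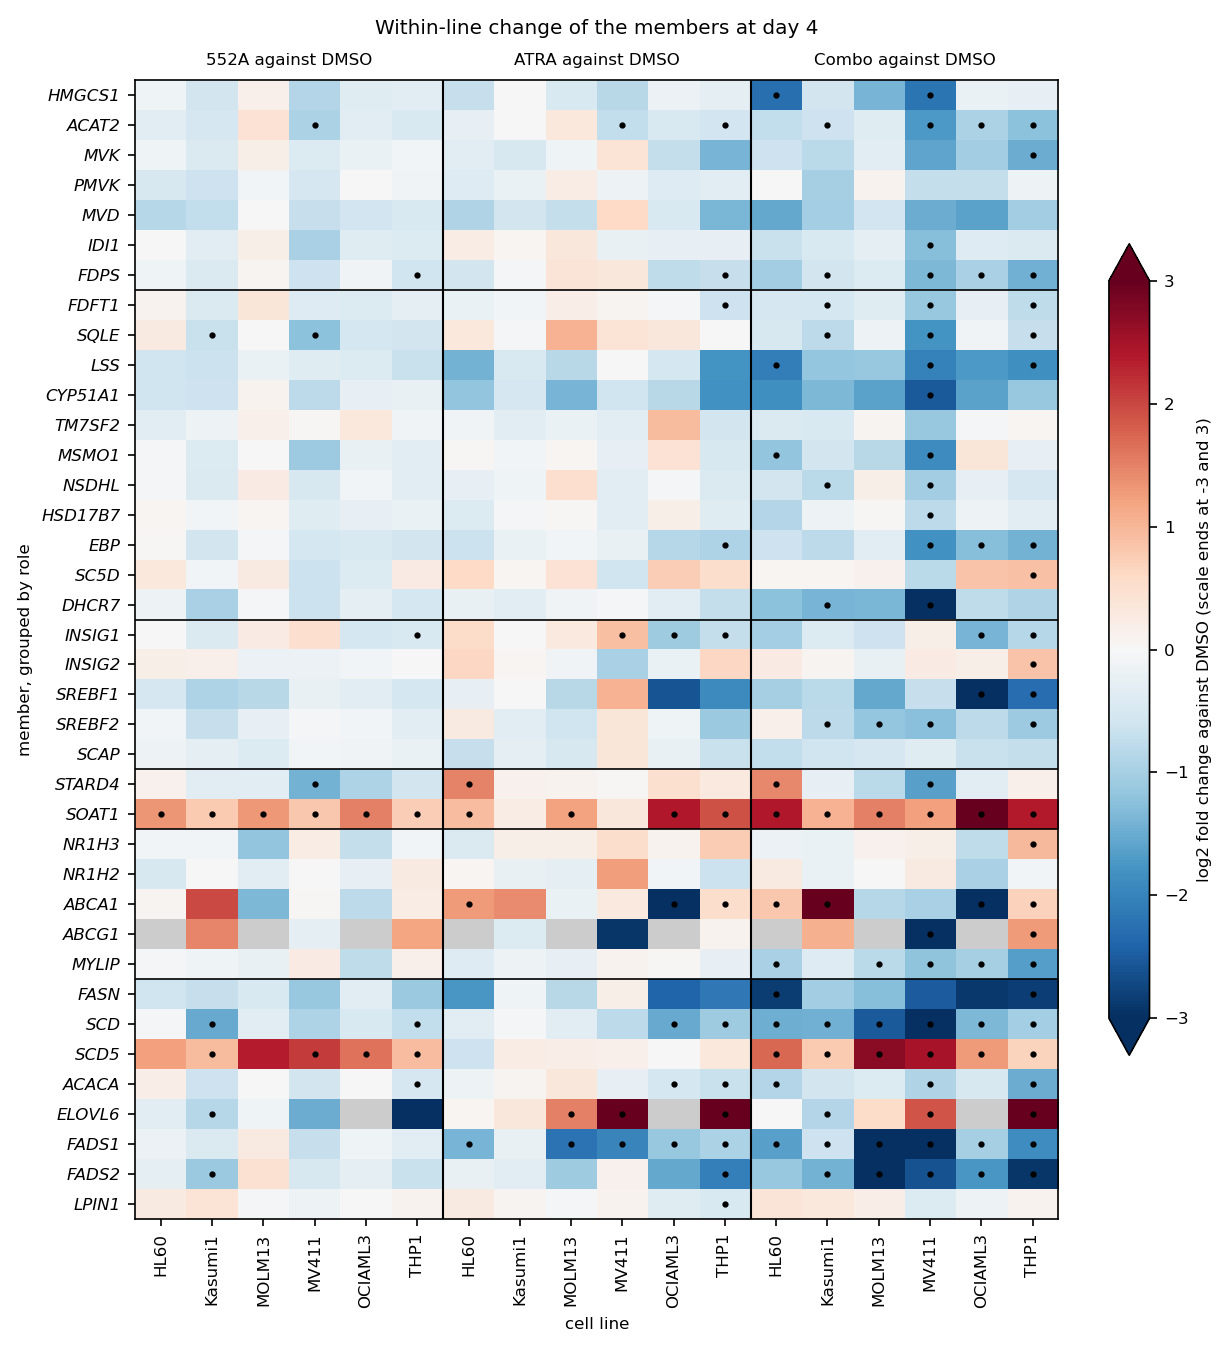
Within-line log2 fold change against DMSO at day 4 (color) for the 38 members by role (y axis) in 6 lines (x axis) under 552A, ATRA and Combo; marked cells have an adjusted p under 0.05. The Combo columns are mostly lower, with 21 members called lower in MV411, and SOAT1 is higher in all 6 lines under 552A and under Combo.

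The response of some members differed between lines, as did that of many other genes. An F test over line-specific treatment terms called 20 of 38 members with Combo, where 33.6% of all genes were called, 14 with ATRA (31.4%) and 3 with 552A (5.69%). With ATRA and with 552A the share of members called was near that of all genes. The members with the smallest p were ABCA1, ELOVL6, SCD, FADS1 and SOAT1. ABCA1, the sterol exporter, took opposite directions. In OCIAML3 it had 154 and 153 CPM in DMSO, 91.2 and 86.6 with 552A, 4.12 and 3.33 with ATRA and 2.798 and 2.29 with Combo, a change of -5.96 ± 0.56 (SE; edgeR adjusted p = 4.47e-05) with Combo. In HL60 it rose from 44.9 and 40.4 CPM to 105 and 106 with ATRA and 67.4 and 83.5 with Combo. THP1 had 265 and 238 CPM in DMSO and 396 and 445 with Combo, and Kasumi1 0.827 and 0.151 and 5.17 and 4.25. In MOLM13 it had 57.7 and 43.95 CPM in DMSO and 28.6 and 27.7 with Combo, and in MV411 50.7 and 51.8 and 34.1 and 19.1, lower in both without passing the test (edgeR adjusted p = 0.233 and 0.32). The gene thus fell in OCIAML3 and rose in HL60, THP1 and Kasumi1, and the adjusted p of the difference between lines was 6.33e-13 with Combo and 1.86e-11 with ATRA by edgeR.

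ELOVL6, which elongates palmitate, was nearly silent in 3 lines in DMSO, at 0.101 and 0 CPM in THP1, 0.487 and 0.681 in MV411 and 0 and 0.0368 in OCIAML3. ATRA took it to 8.23 and 6.64 CPM in MV411 and 3.79 and 4.86 in THP1, and in MOLM13 from 29.5 and 34.3 to 100.3 and 84.5 CPM. It was called higher with ATRA in these 3 lines. In Kasumi1 it was called lower with 552A, from 26.7 and 25.9 to 15.3 and 14.5 CPM, and with Combo, to 16.03 and 13.03 CPM. Across lines its change with ATRA did not pass (2.08 ± 0.74 (SE; edgeR adjusted p = 0.0899)).

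STARD4, a carrier of cholesterol between membranes, rose with Combo in HL60, from 47.9 and 35.3 to 104 and 127 CPM (1.45 ± 0.43 (SE; edgeR adjusted p = 0.0239)), and fell in MV411, from 46.6 and 89.3 to 20.8 and 24.1 CPM (-1.62 ± 0.33 (SE; edgeR adjusted p = 0.0031)). The difference between lines had an edgeR adjusted p of 1.15e-05. INSIG1 with ATRA was higher in MV411, from 505 and 748 to 1014 and 1329 CPM, and lower in OCIAML3, from 219 and 278 to 127 and 113 CPM, and in THP1, from 366 and 359 to 212 and 241 CPM. The same agent thus moved this sensor in opposite directions in different lines. ABCG1 was seen mainly in THP1, at 2.94 and 2.76 CPM in DMSO, 7.703 and 5.46 with 552A and 8.61 and 5.57 with Combo. No other line exceeded 1.66 CPM in any group at day 4.

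**Figure D4:**
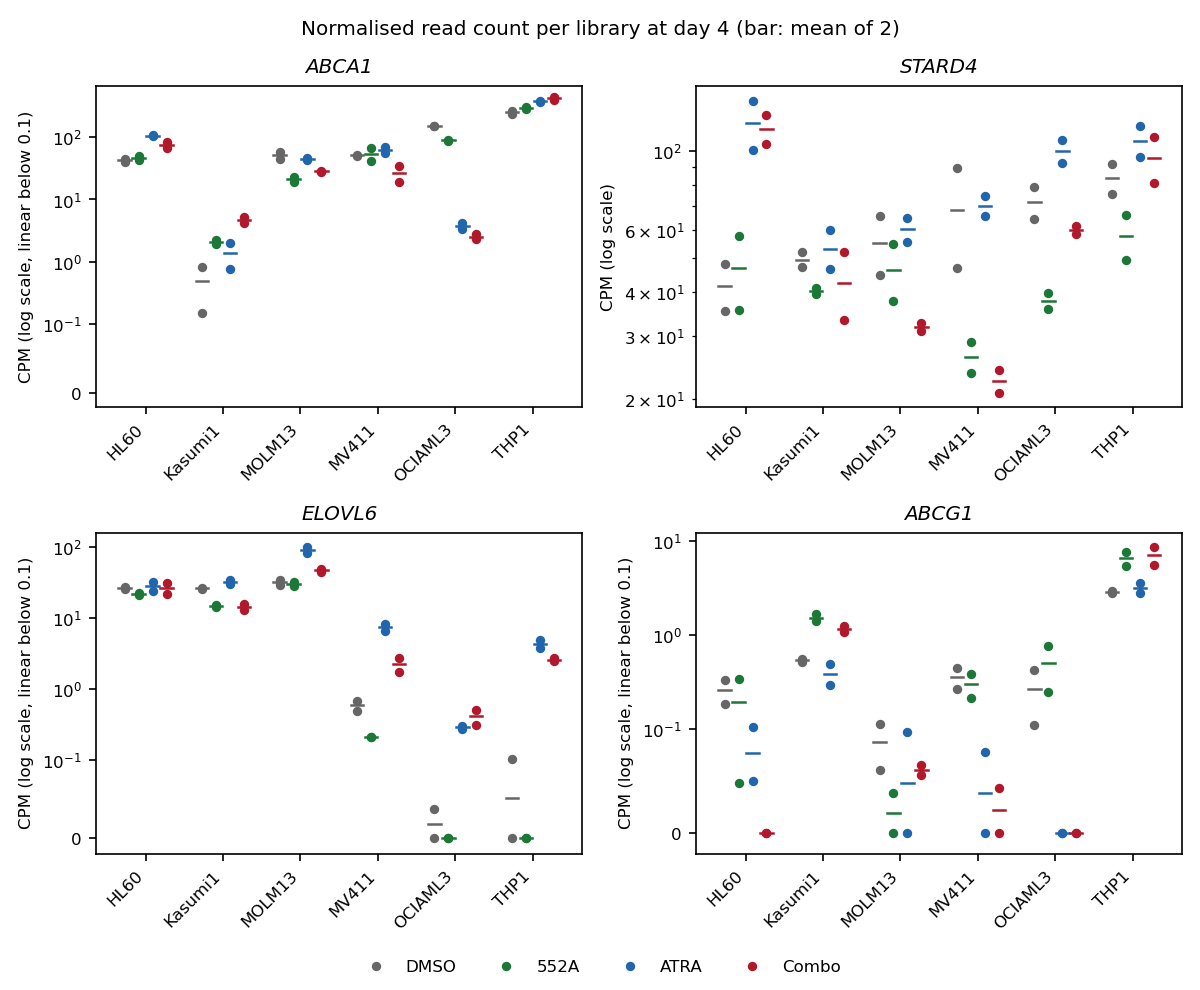
Normalised read counts in CPM (y axis, log scale, linear below 0.1 except for STARD4) in the 2 libraries of each treatment at day 4, by line (x axis), for ABCA1, STARD4, ELOVL6 and ABCG1; each point is a library and each bar the mean of 2. ABCA1 drops to 2.80 and 2.29 CPM with Combo in OCIAML3 and rises in HL60, Kasumi1 and THP1, and ELOVL6 rises with ATRA in MOLM13, MV411 and THP1.

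GC content moved with some of the members. Exonic GC content had a median of 49.62% over the 38 members and 47.7% over all genes tested. After correction for GC content and length, Combo at day 4 gave 24 members lower and 2 higher with a median of -0.60, and without the 5 libraries of steep GC trend 21 lower and 2 higher with a median of -0.67. The members of high GC content moved toward 0 with the correction: MVD to -0.62, SREBF1 to -1.14 and FASN to -1.76, with their calls kept. MSMO1 and HSD17B7, of low GC content, passed the threshold with it, at -0.79 and -0.43. SCD, of middle GC content, was at -1.77 against -1.76 before.

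**Figure D5:**
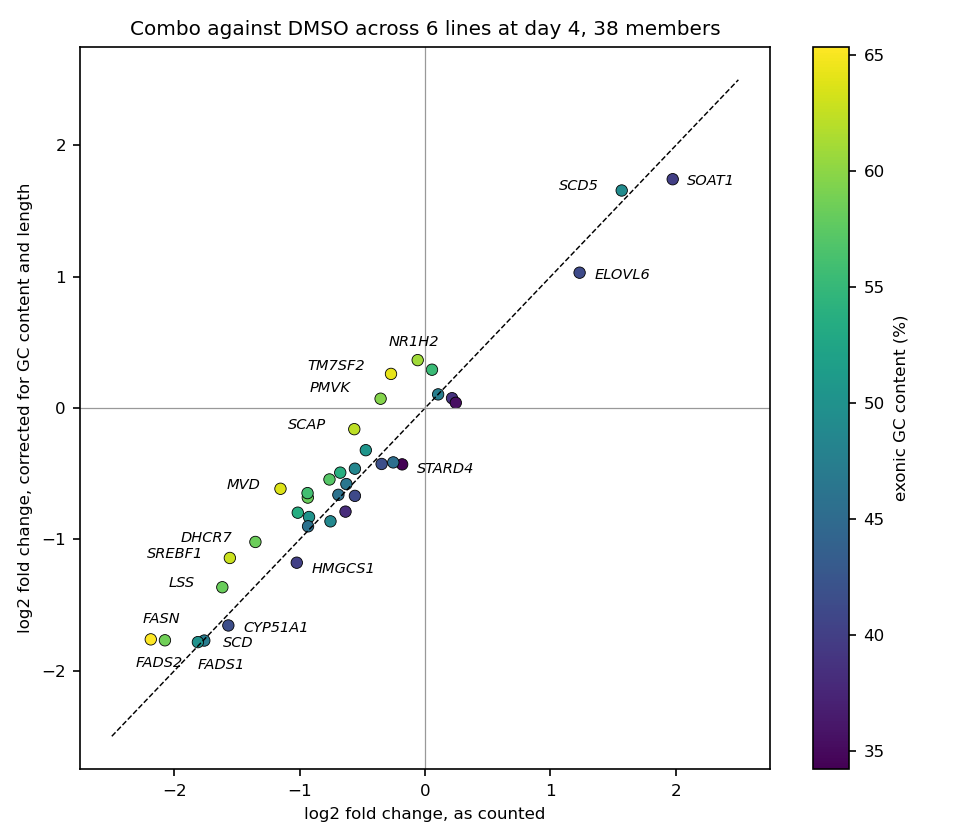
Log2 fold change with Combo across lines at day 4 as counted (x axis) and after correction for GC content and length (y axis) for the 38 members; color is exonic GC content in percent. Most points lie near the diagonal, and members of high GC content such as FASN (-2.19 to -1.76) and SCAP (-0.56 to -0.16) lie above it.

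Other genes of these pathways are given with Combo at day 4, where 12.7% of all genes were called higher and 10.6% lower. Of 13 other sterol genes, LBR (1.22 ± 0.16 (SE; edgeR adjusted p = 0.000202)), the sterol reductase of the nuclear membrane, and NPC2 (2.23 ± 0.43 (SE; edgeR adjusted p = 0.0018)), the lysosomal cholesterol carrier, rose, and ERLIN1 fell. Of 8 other LXR genes tested, CYP27A1 (5.03 ± 0.87 (SE; edgeR adjusted p = 0.000924)), which makes an oxysterol, and SMPDL3A rose, and RXRA (-1.12 ± 0.22 (SE; edgeR adjusted p = 0.00186)), the partner receptor of LXR and of the retinoic acid receptors, fell. Of 18 other fatty acid and glycerolipid genes 6 fell, among them ACLY (-0.52 ± 0.12 (SE; edgeR adjusted p = 0.00403)) and ACSS2 (-0.79 ± 0.21 (SE; edgeR adjusted p = 0.0117)), which supply acetyl-CoA, and ACSL1 rose. With ATRA, where 4.17% of all genes were higher and 2.99% lower, 2 sterol genes rose, LBR and NPC2, 2 LXR genes rose and 2 fell, and 1 fatty acid gene rose and 1 fell. With 552A, where 0.38% of all genes were higher and 0.0124% lower, edgeR called 0 of the 13 sterol, 8 LXR and 18 fatty acid genes tested. At an unadjusted p under 0.05 were 5 of these and 1805 of 24199 genes. ERLIN1, SMPDL3A and ACSL1 are named after their values were seen.

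Markers of maturity also changed with Combo, where 12.7% of all genes were called higher and 10.6% lower. With Combo at day 4, 6 of 14 myeloid differentiation markers rose and 1 fell, and their summed level ran from 122.5 to 11370 CPM with a median of 2047, against 56.5 to 864 with a median of 477 in DMSO. Of 7 progenitor markers 5 fell and CD34 rose. Their summed level ran from 19.48 to 10700 CPM with a median of 153 in Combo, against 277.5 to 13640 with a median of 2433 in DMSO. With 552A the differentiation markers had a summed median of 1516 CPM and with ATRA 831 CPM. Across lines at day 4, 552A called no member lower, where 0.0124% of all genes were lower, and 33 of 38 members had a lower point estimate. The part of changes in cell state in the fall of the sterol and fatty acid genes was not tested. Fibroblast markers summed to at most 0.965 CPM, lymphoid markers to at most 48.5 and epithelial markers to at most 125.3 in any library at day 4.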

How the data were processed

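Counts per gene were the unit of the deposited table: the authors counted whole reads per gene after trimming with Trimmomatic 0.36, alignment with STAR 2.4.2a to GRCh38 and counting with HTSeq 0.6.0, per the submitters' processing notes. The annotation release and the strand setting are not given in the sources used here. Overlapping genes may split reads: 52.27% of the exonic bases of ACAT2 and 18.64% of those of FDPS lie opposite other genes. Gene identifiers were matched to symbols with GENCODE 29. Counts were tested as deposited, in R 4.3.3, with edgeR 4.0.16 (quasi-likelihood test, TMM, filterByExpr, Benjamini-Hochberg adjustment over all genes tested), limma 3.58.1 being its base, and with DESeq2 1.42.0 as an alternative. Across lines the replicates were summed and the line was a block; within a line the fit had 8 residual degrees of freedom; differences between lines were an F test of line by treatment terms. CPM used the normalised library size, and RPKM divided it by exonic length. Alternatives were size factors, no filter, a loess correction on GC content and length, a replicate block, and leaving out replicates, libraries, lines or the 5 libraries of steep GC trend. The scripts were tested on simulated counts. The 38 members, the other pathway genes and the markers were chosen with earlier results of these data known. In each role the 3 members with the smallest p in the day 4 comparisons with DMSO, and those called the same way in at least 4 lines, were described by library; up to 2 genes of each other list were named, and each called member was named. The depth, 12822146 to 40954794 counts per library, limits low genes such as ABCG1.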

Additional observations from a re-analysis of the deposited data

Results flagged for a closer look

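Over all genes the F test between lines at day 4 called 5.69% with 552A, 31.4% with ATRA and 33.6% with Combo. The change with a drug at day 4 differed between lines by edgeR's F test over line-specific treatment terms for these members, with the adjusted p of each in parentheses. With 552A they were FDFT1 (0.025), SCD (0.0304) and ABCA1 (0.000646). With ATRA they were SOAT1 (1.19e-06), SREBF1 (0.0487), FDFT1 (0.0494), SCD (0.00427), INSIG2 (0.0451), LPIN1 (0.00955), FADS1 (0.000834), ABCG1 (0.0367), FDPS (0.00938), STARD4 (0.0248), ABCA1 (1.86e-11), ELOVL6 (1.44e-09), INSIG1 (0.000435) and ACACA (0.0122). With Combo they were MSMO1 (0.00084), SOAT1 (8.33e-07), FDFT1 (0.0121), SCD (1.63e-08), SQLE (0.00753), SC5D (0.00776), HMGCS1 (0.000358), ACAT2 (0.0301), HSD17B7 (0.0306), LPIN1 (0.00347), SCD5 (0.00062), NSDHL (0.0303), FADS1 (6.01e-07), ABCG1 (0.000152), STARD4 (1.15e-05), ABCA1 (6.33e-13), ELOVL6 (3.32e-09), DHCR7 (0.0365), INSIG1 (0.018) and ACACA (0.00426). The directions by line of SOAT1, SCD, FADS1, ABCA1, ELOVL6, STARD4 and INSIG1 are given above. LPIN1, which makes diacylglycerol, had Combo libraries above DMSO in 4 lines and below in MV411.

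In 3 of 54 sets of 6 within-line changes tested for a value far from the rest, such a value was found, each time in HL60. That is near the rate of about 1 in 20 that chance alone gives. The rate does not tell in which line such values fall, and the sets share DMSO libraries. Whether HL60 stands apart was therefore not tested, and it is not read as standing apart. The log2 fold change in HL60 was -0.61 for SCD5 with ATRA, 1.49 for STARD4 with ATRA and 0.147 for SREBF2 with Combo. By edgeR's F test between lines the adjusted p was 0.297, 0.0248 and 0.0839 in that order.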

How the results depend on the processing

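With Combo against DMSO across lines at day 4, 25 members were called, and 21 to 28 under all 14 alternatives, with each of the 6 lines left out included. The calls with a single agent, and those between Combo and an agent, changed more, and the cause was not tested. In what follows each pair is the number of members called as reported and under the alternative. Calls over all genes can change with the setting too and are not given beside the pairs. A pair is therefore not read as a change particular to the members. With DESeq2, members called went from 2 to 6 (552A at day 2), 1 to 2 (552A at day 4), 5 to 12 (ATRA at day 2), 2 to 8 (Combo against 552A at day 2), 2 to 6 (Combo against ATRA at day 2), 1 to 9 (Combo against ATRA at day 4) and 1 to 2 (552A in HL60). With DESeq2 size factors in edgeR, members called went from 2 to 1 (552A at day 2). With the GC and length correction, members called went from 2 to 1 (552A at day 2), 3 to 8 (552A between lines), 5 to 3 (ATRA at day 2), 2 to 4 (Combo against 552A at day 2), 1 to 2 (Combo against ATRA at day 4), 20 to 32 (Combo between lines), 1 to 2 (552A in HL60), 6 to 17 (552A in Kasumi1) and 1 to 2 (552A in MOLM13). The same setting went from 5 to 9 (552A in MV411), 2 to 4 (552A in OCIAML3), 6 to 20 (552A in THP1), 4 to 9 (ATRA in HL60), 4 to 10 (ATRA in MV411), 6 to 15 (ATRA in OCIAML3), 13 to 26 (ATRA in THP1), 7 to 14 (Combo in MOLM13) and 12 to 21 (Combo in OCIAML3). With separate libraries, the line and the replicate number as a block, members called went from 2 to 13 (552A at day 2), 1 to 2 (552A at day 4), 5 to 14 (ATRA at day 2), 4 to 8 (ATRA at day 4), 2 to 13 (Combo against 552A at day 2), 2 to 10 (Combo against ATRA at day 2) and 1 to 18 (Combo against ATRA at day 4). Without the 5 libraries with a steep GC trend, members called went from 2 to 0 (552A at day 2), 3 to 9 (552A between lines) and 1 to 2 (Combo against ATRA at day 4). Without Kasumi1, members called went from 2 to 0 (552A at day 2), 5 to 8 (ATRA at day 2), 2 to 6 (Combo against 552A at day 2) and 2 to 1 (Combo against ATRA at day 2). Without MOLM13, members called went from 2 to 0 (552A at day 2), 1 to 0 (552A at day 4), 5 to 2 (ATRA at day 2), 4 to 1 (ATRA at day 4), 2 to 0 (Combo against 552A at day 2), 15 to 7 (Combo against 552A at day 4), 2 to 0 (Combo against ATRA at day 2) and 1 to 0 (Combo against ATRA at day 4). Without MV411, members called went from 2 to 0 (552A at day 2), 1 to 0 (552A at day 4), 2 to 0 (Combo against 552A at day 2), 2 to 0 (Combo against ATRA at day 2) and 1 to 0 (Combo against ATRA at day 4). Without OCIAML3, members called went from 2 to 0 (552A at day 2), 1 to 0 (552A at day 4), 5 to 0 (ATRA at day 2), 4 to 0 (ATRA at day 4), 2 to 0 (Combo against 552A at day 2), 15 to 4 (Combo against 552A at day 4), 2 to 1 (Combo against ATRA at day 2) and 1 to 0 (Combo against ATRA at day 4). Without THP1, members called went from 2 to 0 (552A at day 2), 5 to 0 (ATRA at day 2), 4 to 0 (ATRA at day 4), 2 to 0 (Combo against 552A at day 2), 15 to 3 (Combo against 552A at day 4) and 2 to 1 (Combo against ATRA at day 2). With no filter on low counts, members called went from 3 to 6 (552A between lines), 1 to 2 (Combo against ATRA at day 4), 6 to 11 (552A in Kasumi1), 1 to 2 (552A in MOLM13), 5 to 10 (552A in MV411), 4 to 11 (ATRA in HL60), 3 to 8 (ATRA in MOLM13), 4 to 8 (ATRA in MV411) and 6 to 10 (ATRA in OCIAML3). The same setting went from 12 to 24 (Combo in HL60), 7 to 16 (Combo in MOLM13) and 12 to 23 (Combo in OCIAML3). With the replicate number as a block, members called went from 3 to 7 (552A between lines), 6 to 13 (552A in Kasumi1) and 13 to 22 (ATRA in THP1). With the replicate block and the GC and length correction, members called went from 3 to 20 (552A between lines), 14 to 27 (ATRA between lines), 20 to 34 (Combo between lines), 1 to 2 (552A in HL60), 6 to 21 (552A in Kasumi1), 1 to 3 (552A in MOLM13), 5 to 11 (552A in MV411), 2 to 5 (552A in OCIAML3) and 6 to 24 (552A in THP1). The same setting went from 4 to 9 (ATRA in HL60), 3 to 6 (ATRA in MOLM13), 4 to 11 (ATRA in MV411), 6 to 16 (ATRA in OCIAML3), 13 to 28 (ATRA in THP1), 12 to 22 (Combo in HL60), 14 to 22 (Combo in Kasumi1), 7 to 16 (Combo in MOLM13) and 12 to 21 (Combo in OCIAML3). Without HL60, members called went from 5 to 1 (ATRA at day 2), 4 to 0 (ATRA at day 4), 2 to 0 (Combo against 552A at day 2), 15 to 7 (Combo against 552A at day 4) and 1 to 0 (Combo against ATRA at day 4). With 1 of the 2 replicates left out across lines, members called ranged from 0 to 1 (552A at day 2), 0 to 3 (ATRA at day 2), 1 to 5 (ATRA at day 4), 0 to 4 (Combo against 552A at day 2), 3 to 15 (Combo against 552A at day 4), 1 to 2 (Combo against ATRA at day 2), 0 to 1 (Combo against ATRA at day 4) and 10 to 21 (Combo at day 2). With 1 library of a line left out, they ranged from 0 to 1 (552A in HL60), 2 to 11 (552A in Kasumi1), 0 to 2 (552A in MOLM13), 0 to 5 (552A in MV411), 0 to 3 (552A in OCIAML3) and 1 to 10 (552A in THP1). For ATRA the range was 2 to 10 (ATRA in HL60), 2 to 6 (ATRA in MV411), 4 to 15 (ATRA in OCIAML3) and 7 to 21 (ATRA in THP1), and for Combo 5 to 13 (Combo in HL60), 4 to 25 (Combo in Kasumi1), 4 to 13 (Combo in MOLM13), 6 to 22 (Combo in OCIAML3) and 13 to 27 (Combo in THP1). An arm left with 1 library was taken to vary like the other groups of the fit. DESeq2 and leaving out libraries were not run for the tests between lines.

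Direction turned in no call across lines against DMSO at day 4. Among the members described by library it turned in 5 cases: NR1H3 with Combo was -0.17 without THP1, SCAP with 552A was 0.002 with the GC and length correction and 0.109 without replicate 1 (-0.516 without replicate 2), SCD5 with ATRA was -0.017 without THP1, and STARD4 with Combo was 0.089 without MV411. Of the other members, the GC and length correction turned PMVK (-0.35 to 0.07), TM7SF2 (-0.27 to 0.26) and NR1H2 (-0.06 to 0.36) with Combo, TM7SF2 (-0.05 to 0.27) and INSIG2 (0.04 to -0.12) with ATRA and NR1H2 (-0.08 to 0.08) with 552A. Without the 5 libraries of steep GC trend NR1H2 turned to 0.17 with Combo and 0.01 with 552A. The labels do not say what a replicate number shares, and not every pair of groups correlated, so the numbers were not taken to pair the libraries, and calls gained or lost with a block are not read as a stronger or weaker effect. Over 168 pairs of groups within lines, the correlation of replicate differences was above 0.1 in 99 and below -0.1 in 47, and ran from -0.858 to 0.931. The median within a line ran from 0.0186 in MOLM13 to 0.49 in THP1, where 21 of 28 pairs were above 0.1 and 6 below -0.1. Low counts limit ABCG1, ELOVL6 and SCD5, and 2 replicates limit each call within a line.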
